A study of Homo sapiens with 8 samples.

Results

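Integrin, laminin and collagen genes were described in SQ20B cells, an established human cell line from a squamous cell carcinoma of the head and neck, by RNA-Seq of polyadenylated RNA. The 8 samples fell into 2 groups of 4 replicates, normoxia and hypoxia, the latter kept in 0.5% O2 for 16 h, and no other treatment separated them. All samples came from this 1 line, and the series calls the replicates biological without saying how they were separated. The members were the genes whose whole symbol was ITGA or ITGB with a number, ITGAV, LAMA, LAMB or LAMC with a number, or COL, a number, A and a number. Among the 77 annotated genes with such a symbol, 47 were listed in the deposited expression table, out of 14528 named genes in all. They comprised 14 integrin, 10 laminin and 23 collagen genes, with 71 listed transcripts. None of the 47 was listed at 0 in either condition, and the other 30, among them COL1A1, COL1A2, ITGA4 and ITGB3, had no entry under their symbol.

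Integrins are heterodimeric receptors of 1 alpha and 1 beta subunit that tie the cytoskeleton to the extracellular matrix. Laminins are cross-shaped trimers of an alpha, a beta and a gamma chain that form the epithelial basement membrane with type IV collagen, and collagens are triple-helical proteins that build fibrils, networks and anchoring structures. In squamous epithelium, basal cells sit on laminin-332 through integrin alpha6beta4 and collagen XVII in hemidesmosomes, and integrins such as alphavbeta6 and alpha5beta1 are known for their roles in wound repair and in the invasion of carcinoma cells.

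Expression was given in FPKM, fragments scaled by the length of the transcript and by the number of mapped reads, with 1 value per condition over its 4 replicates. Because FPKM is scaled by length, levels were set side by side between genes. Such ratios are rough, since transcripts without an entry or a symbol are missing from a gene's level. The FPKM of all listed transcripts of a gene was summed, and the change was computed as log2((hypoxia FPKM + 0.1)/(normoxia FPKM + 0.1)). Every fold between conditions is on this scale, while ratios between genes within a condition are of the FPKM values themselves. The 0.1 added to each value lowers the change of genes near 0. With only these pooled values used here, replicate error is unknown, none of the differences below was tested, and the depth of single samples is unknown. The study's methods give a minimum number of reads aimed at for each sample and an average of uniquely aligned reads over samples. Genes with a mean of at least 0.5 FPKM over both conditions were compared, which left 12106 genes and 33 of the 47 members, and a difference of at least 1.5-fold was counted. Of 7 squamous markers 6 were listed, with a summed level of 574 FPKM in normoxia and 641 in hypoxia, among them KRT5 at 398 and 442 and TP63 at 42.8 and 44.6. KRT6A went the other way, from 5.10 to 3.26 FPKM, 1.5-fold or more lower, and DSG3 stood at 16.4 and 12.8. Most of the sum was KRT5. The basal keratin KRT14 was not in the table. Of the fibroblast, endothelial and leukocyte markers, 1 of 5, 1 of 3 and 1 of 3 were listed, with summed levels of at most 0.126 FPKM for fibroblasts and 0.132 for leukocytes. The endothelial marker was CDH5, at 4.78 FPKM in normoxia and 2.83 in hypoxia, and PECAM1 and VWF were not in the table.

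Of the 33 members above the limit, 17 were higher in hypoxia by at least 1.5-fold (51.5%) and none was lower by that much. Among all 12106 genes the shares were 9.95% higher and 11.2% lower. In RNA from whole cultures, more cells expressing a gene and more RNA of it per cell cannot be told apart. The median log2 change of the 33 members was 0.59, against -0.07 for all genes. A change above 0 was seen in 29 of them and in 43.6% of all genes. Among the 29, COL10A1 and LAMA2 reached the limit on the mean only through their hypoxia values. By family, 5 of 12 integrins, 3 of 8 laminins and 9 of 13 collagens were higher by 1.5-fold, and the median log2 changes were 0.35, 0.51 and 0.88. A 2-fold difference was reached by 7 of the 33 members, all upward, against 3.21% of all genes. They were ITGA5, LAMB2, LAMB3, COL4A2, COL7A1, COL13A1 and COL17A1. Summed over the members above the limit, integrin FPKM was 463 in normoxia and 547 in hypoxia, laminin FPKM went from 170 to 250 and collagen FPKM from 92.1 to 181. The collagens thus had the largest ratio of sums of the 3 families, 1.97, while the sum over all 12106 genes was lower in hypoxia, with a ratio of 0.855.

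**Figure D1:**
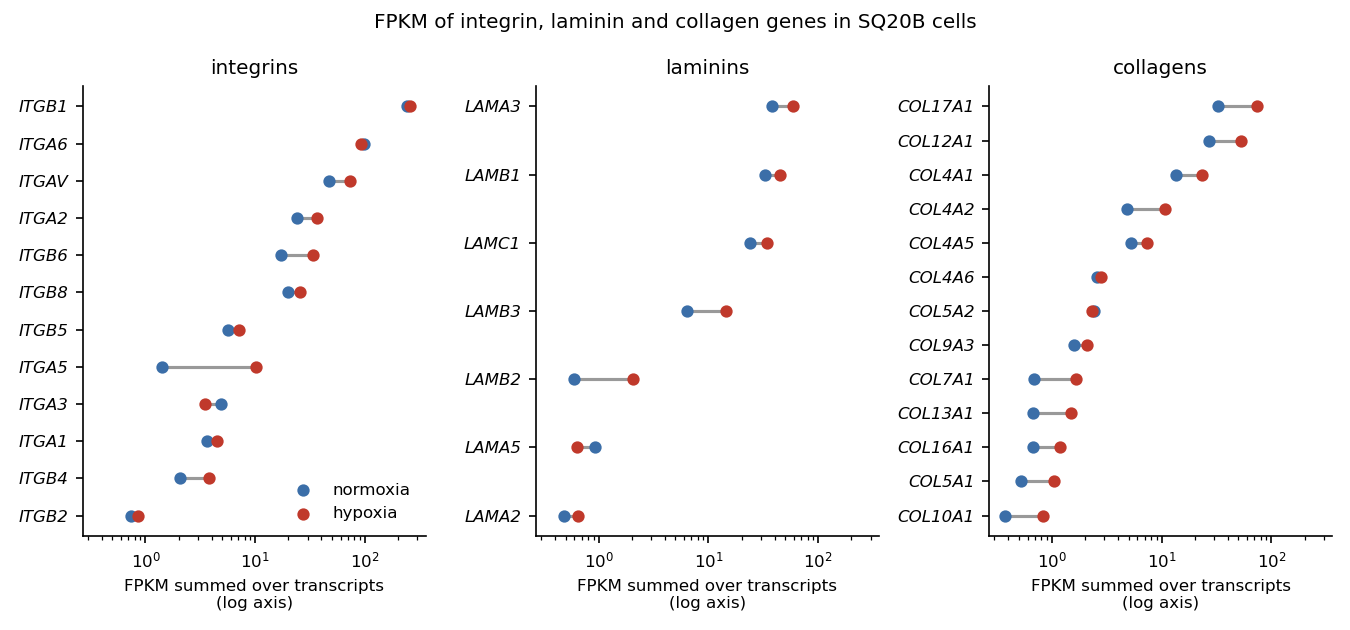
FPKM of 32 integrin, laminin and collagen genes with a mean of at least 0.5 FPKM, on a log axis, with normoxia in blue and hypoxia in red and 1 value per condition over its 4 replicates. The red point lies to the right in 28 genes and to the left in 4 (ITGA3, ITGA6, LAMA5 and COL5A2), and the longest line is that of ITGA5.

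**Figure D2:**
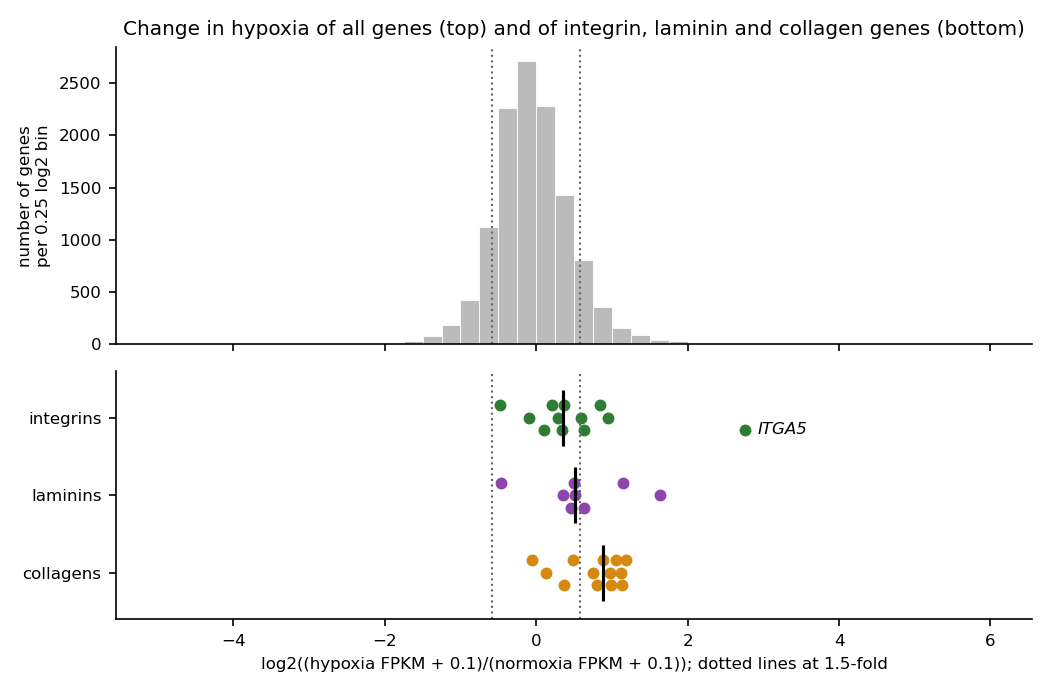
Number of genes by log2 change in hypoxia for all 12106 genes with a mean of at least 0.5 FPKM (top), and each integrin, laminin and collagen gene as a point with the median of its family as a black line (bottom; the points are spread vertically for legibility). The family medians of 0.35, 0.51 and 0.88 lie to the right of the median of all genes, -0.07, and no member lies beyond the left dotted line, which marks 1.5-fold lower.

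Both the level and the length of a transcript moved with the change across all genes, so the members were also read against genes of like level or length, limits chosen after the values were seen. Members have long transcripts, with a median of 6446 bases for the longest annotated one against 3768 for all genes. Among genes with a longest transcript of at least 4000 bases, 11.6% were higher by 1.5-fold, compared with 15 of the 30 members of that length. Across 11903 genes, Spearman's rho between the change and the longest transcript was 0.22, and across 12106 genes it was -0.28 between the change and the mean FPKM. These points share the same libraries and are not independent. By level, 16.3% of genes at 0.5 to under 5 FPKM were higher by 1.5-fold, and 7 of 15 members in that range were. The shares were 8.09% and 4 of 6 members at 5 to under 20 FPKM, and 4.47% and 6 of 12 members at 20 FPKM or more. All 12 of those most abundant members also had a transcript of at least 4000 bases, and among genes with both properties 5.7% were higher by 1.5-fold. These level classes use the mean of both conditions. Of the members counted as higher, COL10A1, ITGA5, COL4A2 and ITGB6 entered their class only through their hypoxia values. Their places among the 7, 4 and 6 members counted are thus no support for those counts. The parts of length and level in the changes were not tested beyond these counts.

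Among members above the limit, ITGA5, LAMB2 and COL17A1 had the largest change of their family. The 250 bases upstream of their RefSeq starts are printed below. With them is the interval between the divergent starts of COL4A1 and COL4A2 (assembly GRCh38.p14). Capitals mark ACGTG or GCGTG on either strand, the core that hypoxia-inducible factors are known to bind. ACGTG also lies within the E-box CACGTG. The stretches are chr12:54419267-54419516 (minus strand) for ITGA5, chr3:49133051-49133300 (minus) for LAMB2, chr10:104085881-104086130 (minus) for COL17A1 and chr13:110307158-110307283 (printed on the plus strand) for the COL4A1 and COL4A2 interval.
ITGA5: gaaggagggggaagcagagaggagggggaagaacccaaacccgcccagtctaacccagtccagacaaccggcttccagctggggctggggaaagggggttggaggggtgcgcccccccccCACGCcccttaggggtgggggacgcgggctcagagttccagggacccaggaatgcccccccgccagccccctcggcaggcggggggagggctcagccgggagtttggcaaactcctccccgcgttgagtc
LAMB2: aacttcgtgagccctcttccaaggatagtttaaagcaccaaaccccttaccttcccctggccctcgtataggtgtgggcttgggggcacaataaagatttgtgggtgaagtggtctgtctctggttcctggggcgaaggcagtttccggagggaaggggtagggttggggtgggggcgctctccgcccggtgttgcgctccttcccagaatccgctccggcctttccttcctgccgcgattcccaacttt
COL17A1: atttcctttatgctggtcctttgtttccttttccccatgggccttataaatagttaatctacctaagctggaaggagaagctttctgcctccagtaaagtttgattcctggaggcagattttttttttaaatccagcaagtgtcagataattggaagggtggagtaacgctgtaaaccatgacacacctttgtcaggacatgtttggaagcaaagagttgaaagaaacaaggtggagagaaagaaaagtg
COL4A1-COL4A2: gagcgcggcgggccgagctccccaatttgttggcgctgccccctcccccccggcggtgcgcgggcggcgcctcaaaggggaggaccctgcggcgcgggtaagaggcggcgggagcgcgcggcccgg

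ITGA5 held 1 match, GCGTG on the opposite strand, whose first printed base lies 130 bases before the start, and the other 3 stretches held none. In the full 250 bases upstream of its own start, the window used for the counts that follow, COL4A2 held 1 match, which is not contained in the printed interval, and COL4A1 held none. Of the 33 members above the limit, 27 had a promoter in the RefSeq table, and 9 of these (33.3%) held a match in the 250 bases upstream. COL5A2, COL9A3, ITGA3, ITGB2 and ITGB4 were among those without an entry. The share was 43.1% of all 27305 promoters and 57.8% of the 9671 promoters of genes above the limit. Among members that were higher by 1.5-fold 6 of 16 held a match, and among the others 3 of 11. A match is a match of letters only, and its absence says nothing beyond this window.

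Integrin subunits were led by ITGB1, the common partner of most alpha subunits, with 239 FPKM in normoxia and 257 in hypoxia (log2 change 0.10). ITGA6, a laminin-binding subunit, followed at 97.9 and 92.0 FPKM (log2 change -0.09), and its sign turned when the FPKM columns were scaled to equal sums (0.14). These most abundant subunits were thus nearly level. Together with ITGAV they made up 82.9% of the summed FPKM of the listed integrins in normoxia and 77.1% in hypoxia.

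The 5 subunits above the limit that bind the RGD sequence of fibronectin, vitronectin or latent TGF-beta all had a change above 0. By 1.5-fold, 3 of the 5 were higher. Among all 12106 genes, the shares were 43.6% with a change above 0 and 9.95% higher by 1.5-fold. ITGA5, the alpha subunit of the fibronectin receptor alpha5beta1, had the largest change of any member, from 1.42 to 10.2 FPKM (log2 change 2.76, or 6.79-fold). Of all genes above the limit, 99.8% had a smaller change. ITGA5 spans chr12:54789045-54813050 in GRCh37 (hg19), and with 1 in place of 0.1 added to each FPKM its log2 change was 2.21. The level of ITGB1 was 169 times that of ITGA5 in normoxia and 25.2 times in hypoxia, so ITGA5 stayed a minor partner of ITGB1 by level.

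ITGAV, which pairs with ITGB5, ITGB6 and ITGB8, went from 47.4 to 73.6 FPKM (1.55-fold), and ITGB6 from 17.1 to 33.3 FPKM (1.94-fold). ITGB8 stood at 19.7 FPKM in normoxia and 25.4 in hypoxia, and ITGB5 at 5.63 and 7.13, and both differences were below 1.5-fold. The FPKM of ITGAV was 1.12 times the sum of these 3 beta subunits in normoxia and again 1.12 times in hypoxia. ITGAV and these 3 beta subunits together were therefore higher by nearly the same factor, with ITGB6 gaining most among them. ITGB1, which also pairs with ITGAV, is not in that sum and was nearly level. ITGB6 lies on chromosome 2 of GRCh37 (160956178 to 161056824) and ITGAV on the same chromosome (187454737 to 187545628).

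Collagen-binding subunits were represented by ITGA2 and ITGA1. ITGA2 went from 24.02 to 36.2 FPKM, which at 1.51-fold lay just above the 1.5-fold limit, and fell below it (log2 change 0.57) with 1 added to each FPKM. ITGA1 stood at 3.64 and 4.45 FPKM (1.22-fold). Neither ITGA10 nor ITGA11, the other collagen-binding alpha subunits, was in the table.

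Among the laminin-binding subunits only ITGB4, the hemidesmosomal partner of ITGA6, was higher by 1.5-fold, from 2.06 to 3.79 FPKM (1.80-fold). ITGA6 exceeded ITGB4 47.4-fold in normoxia and 24.3-fold in hypoxia. ITGA3, the alpha subunit of the laminin receptor alpha3beta1, was represented by 1 transcript, NM_002204, at 4.86 FPKM in normoxia and 3.46 in hypoxia (log2 change -0.48). A further entry, NM_005501, has no symbol in the RefSeq table used, and its hg19 locus (chromosome 17, 48133339 to 48167849) holds ITGA3 as its only coding gene. It stood at 11.02 FPKM in normoxia and 13.9 in hypoxia. With this entry added, ITGA3 came to 15.9 and 17.4 FPKM and its log2 change to 0.13, so that the sign of ITGA3 depended on whether the entry was counted. ITGB2, the beta subunit of leukocyte integrins, was listed at 0.733 and 0.862 FPKM. Its locus overlaps the antisense gene ITGB2-AS1, which went from 0.768 to 2.79 FPKM. The library kit marks strand, and the study's methods name standard parameters for the quantification without saying whether strand was used.

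LAMA3 and LAMB3, an alpha and a beta chain of laminin-332, the main laminin of stratified epithelium, were both higher by at least 1.5-fold in hypoxia. LAMA3 stood at 37.5 FPKM in normoxia and 58.4 in hypoxia (1.56-fold) and LAMB3 at 6.41 and 14.3 (2.22-fold). LAMA3 had 5.85 times the level of LAMB3 in normoxia and 4.07 times in hypoxia, so these chains lay closer together in hypoxia. LAMB3 spans positions 209788215 to 209825770 of chromosome 1 in GRCh37, and LAMA3 positions 21269417 to 21536186 of chromosome 18.

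LAMB1 and LAMC1, the beta and gamma chains of the more widely expressed laminins, held 33.3% of the laminin FPKM in normoxia and 31.5% in hypoxia. LAMB1 went from 32.7 to 45.0 FPKM (1.37-fold) and LAMC1 from 23.8 to 34.2 FPKM (1.43-fold), so both moved upward by less than the 1.5-fold limit and their ratio was 1.37 in normoxia and 1.32 in hypoxia. LAMB2, which replaces LAMB1 in several basement membranes, was low but had the largest change of the laminins, from 0.596 to 2.06 FPKM (log2 change 1.63, and 0.94 with 1 added to each FPKM). It lies on chromosome 3 of GRCh37 (49158547 to 49170551). The alpha chains other than LAMA3 were scarce. LAMA5 had 0.920 FPKM in normoxia and 0.640 in hypoxia, 1.38-fold lower, and LAMA2 stood at 0.485 and 0.650. LAMA2 reached the limit on the mean only through its hypoxia value, so its place in the laminin median is no support for that value. LAMA1 was listed at 0.135 and 0.217 FPKM, LAMA4 and LAMC3 were not in the table, and LAMA3 was the only alpha chain above 1 FPKM.

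Collagen FPKM was carried by COL17A1 and COL12A1, which made up 62.7% of the summed FPKM of the listed collagens in normoxia and 68.4% in hypoxia. COL17A1, the transmembrane collagen of hemidesmosomes, went from 32.3 to 73.9 FPKM (log2 change 1.19, 2.29-fold), and 97.8% of all genes above the limit had a smaller change. It spans chr10:105791044-105845638 in GRCh37. Of the 4 transmembrane collagens, only COL13A1 was listed besides, and it went from 0.671 to 1.496 FPKM (2.07-fold). Both listed members of this group were thus at least 2-fold higher, against 3.21% of all genes above the limit. With 1 added to each FPKM, the log2 change of COL13A1 was 0.58, below 1.5-fold. COL12A1, which decorates collagen fibrils, went from 26.8 to 52.5 FPKM (1.96-fold) and lies on chromosome 6 (75794042 to 75915983). Other fibril-associated collagens were much lower. COL16A1 stood at 0.666 and 1.19 FPKM (1.69-fold) and COL9A3 at 1.59 and 2.09 (1.29-fold). The locus of COL9A3 held another entry without a symbol, NM_080750, but also a second coding gene, and this entry was not assigned.

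Type IV collagen, the network of the basement membrane, was represented by 5 of its 6 genes. The 4 of these above the limit had changes above 0, as did 43.6% of all genes. COL4A1 went from 13.4 to 23.5 FPKM (1.74-fold) and COL4A2 from 4.87 to 10.7 FPKM (2.16-fold). These genes encode the chains of the common type IV trimer and are transcribed away from each other on chromosome 13, with 126 bases between their starts in the interval printed above. COL4A1 exceeded COL4A2 2.76-fold in normoxia and 2.20-fold in hypoxia. COL4A5 stood at 5.25 and 7.41 FPKM (1.40-fold) and COL4A6 at 2.56 and 2.82 FPKM (1.10-fold). They form a divergent pair on the X chromosome with 379 bases between their starts, and here the difference was smaller than for the pair on chromosome 13 in both genes. COL4A4 was listed at 0.0617 and 0.306 FPKM, and its divergent neighbour COL4A3 was not in the table.

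The remaining collagens above the limit were below 3 FPKM. COL7A1, which forms the anchoring fibrils that fix the epithelial basement membrane to the dermis, went from 0.691 to 1.64 FPKM (2.20-fold). COL10A1, a network-forming collagen, was listed at 0.371 and 0.836 FPKM (1.99-fold). It reached the limit on the mean only through its hypoxia value. Its place among the 9 collagens and the 17 members counted as higher is thus no support for either count. Of the fibril-forming collagens, COL5A1 went from 0.518 to 1.04 FPKM (1.84-fold), while its partner COL5A2 stood at 2.44 and 2.34 FPKM (log2 change -0.05, which turned to 0.16 with equal FPKM sums and to 0.02 with median centring). COL3A1 was at 0.0489 and 0.107 FPKM, and the main fibril-forming genes COL1A1 and COL1A2 were not in the table. Several collagen differences rest on such low values. With 1 in place of 0.1 added to each FPKM, 5 of the 13 collagens (COL4A1, COL4A2, COL7A1, COL12A1 and COL17A1) were higher by 1.5-fold in place of 9, and the median log2 change of the family was 0.43.

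Of the 14 members below the limit, 12 were higher and 2 lower in hypoxia, with means from 0.0780 to 0.495 FPKM. They are left out of the counts given above for members past the limit. In 2 of them 1 condition reached 0.5 FPKM. COL21A1 had 0.261 FPKM in normoxia and 0.726 in hypoxia, and COL9A2, one of the genes that was lower, at 0.554 and 0.437.

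More than 1 transcript was listed for 11 of the 33 members, and the leading transcript was the same in both conditions in all 11. The largest shift of share was that of ITGB4, where NM_001005731 went from 80.4% to 89.9% of the gene's FPKM and NM_001005619 from 19.6% to 10.1%. In ITGB1, NM_133376 went from 164 to 194 FPKM and NM_002211 from 74.6 to 62.8 FPKM, so that transcripts of a nearly level gene moved in opposite directions. Their shares went from 68.7% to 75.4% and from 31.2% to 24.5%. COL4A6 showed the same kind of shift at a low level, with NM_033641 at 1.27 and 1.65 FPKM and NM_001847 at 1.18 and 1.06.

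Where the whole gene was higher, its main transcripts were mostly higher together. An exception was ITGB4, where NM_001005619 stood at 0.404 FPKM in normoxia and 0.383 in hypoxia. Both LAMB3 transcripts were higher, NM_000228 from 4.25 to 10.6 FPKM and NM_001017402 from 2.16 to 3.73 FPKM. The leading ITGB6 transcript NM_001282355 went from 8.89 to 17.2 FPKM with 51.9% and 51.5% of the gene, NM_000888 from 2.73 to 6.78 FPKM and NM_001282388 from 3.46 to 5.80 FPKM. All 4 listed transcripts of COL13A1 were below 1 FPKM, led by NM_080798 at 0.263 and 0.572, NM_080800 at 0.230 and 0.404 and NM_080805 at 0.120 and 0.385. A single transcript carried at least 89.1% of its gene in both conditions for ITGA2 (NM_002203), ITGA6 (NM_000210), ITGAV (NM_001144999) and LAMA3 (NM_000227). The second ITGA6 transcript, NM_001079818, had 10.9% of the gene in normoxia and 9.79% in hypoxia. Reads shared by overlapping transcripts are divided by the authors' software, and the error of that division is not known here.

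**Figure D3:**
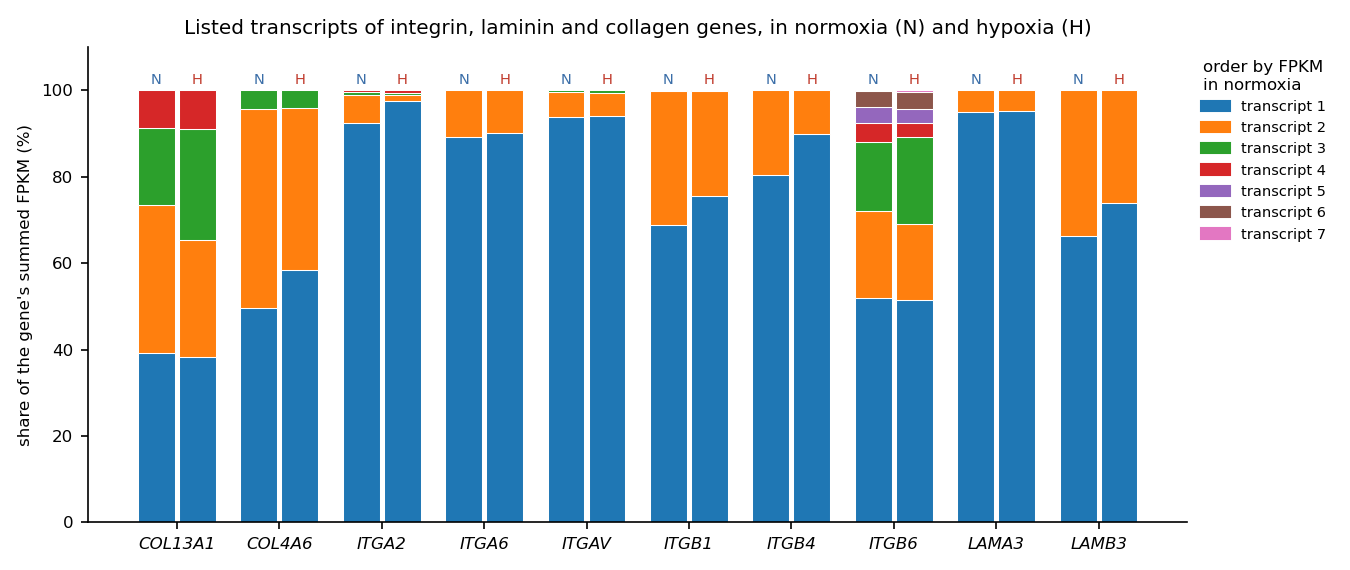
Share of the summed FPKM of each gene, in percent, held by each of its listed transcripts, in normoxia (N) and hypoxia (H), for 10 integrin, laminin and collagen genes with more than 1 listed transcript; colours give the order by FPKM in normoxia within a gene. The lowest block, the leading transcript, is the same in both conditions in every gene, and the largest shift is that of ITGB4, from 80.4% to 89.9%.

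Other genes of cell adhesion and matrix did not all move like the integrins, laminins and collagens. Of the focal adhesion adaptors and kinases, which link integrins to actin, 21 of 28 were above the limit. Of these, 2 were higher by 1.5-fold and 3 lower, close to the shares of all genes, and their median log2 change was -0.04. TLN1, the talin that activates integrins, went from 6.31 to 12.6 FPKM (1.99-fold) and ACTN4, an actin crosslinker, from 15.6 to 27.6 (1.76-fold). FERMT1, the epithelial kindlin that also activates integrins, went the other way, from 44.4 to 29.3 FPKM (log2 change -0.60), as did the focal adhesion protein zyxin (ZYX) from 1.65 to 0.583 (-1.36) and the scaffold BCAR1 from 1.02 to 0.590 (-0.70).

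By count and median, other basement membrane proteins resembled the laminins and collagens more closely. Above the limit, 4 of 7 genes were higher by 1.5-fold, against 9.95% of all genes, none was lower, and the median log2 change was 0.84. Their ratio of sums was 1.17, below the 1.48 of the laminins and the 1.97 of the collagens. The most abundant, NTN4, was 1 of 2 with a change below 0, at 30.0 FPKM in normoxia and 25.3 in hypoxia. NID1, the nidogen that bridges laminin and type IV collagen, went from 0.525 to 1.73 FPKM and PXDN, the peroxidase that crosslinks type IV collagen, from 8.37 to 15.1. SMOC2, which encodes a calcium-binding matricellular protein, went from 1.18 to 3.37 FPKM and FRAS1, which helps hold epithelium to its basement membrane, from 0.581 to 1.47. HSPG2, which encodes perlecan, was not in the table.

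Of the other integrin ligands, 5 of 12 genes above the limit were higher by 1.5-fold and 1 was lower. The shares of all genes were 9.95% and 11.2%. The most abundant ligands, TGFBI and THBS1, stood at 175 and 193 FPKM in normoxia and at 252 and 171 in hypoxia, both differences below 1.5-fold. The ratio of sums of the list was 1.17. FN1, the fibronectin bound by alpha5beta1, went from 7.69 to 24.7 FPKM (3.19-fold), so that it and ITGA5 were both at least 3-fold higher. SPP1, which encodes osteopontin, went from 2.19 to 5.50 FPKM, the fibrillin gene FBN2 from 4.33 to 7.70, the thrombospondin gene THBS3 from 0.628 to 1.13 and the lactadherin gene MFGE8 from 0.832 to 1.42, while the matricellular gene CCN3 went from 4.90 to 2.56 (log2 change -0.91). Of the matrix receptors outside the integrins, 3 of 6 above the limit were higher by 1.5-fold, against 9.95% of all genes. They were DDR1, a collagen-activated kinase, from 24.7 to 52.2 FPKM, DAG1, which encodes the laminin receptor dystroglycan, from 6.96 to 12.8, and the syndecan gene SDC3 from 0.614 to 1.04.

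Of the collagen folding and processing genes, 2 of 8 above the limit were higher by 1.5-fold, against 9.95% of all genes. None was lower by that much, and the median log2 change was 0.33. BMP1, which cleaves procollagen, went from 2.40 to 3.85 FPKM and PCOLCE2, which encodes an enhancer of that cleavage, from 0.409 to 0.926. PCOLCE2 reached the limit on the mean only through its hypoxia value, so its place among the 2 is no support for that count. Among the partners of collagen XVII and alpha6beta4 in hemidesmosomes, DST, a plakin, stood at 103 and 120 FPKM and the tetraspanin CD151 at 10.2 and 10.1, and PLEC, which encodes plectin, had 0.306 and 0.121 FPKM, below the limit. The only integrin outside the name pattern with a mean of at least 0.5 FPKM was ITGAE, the partner of ITGB7 in the E-cadherin receptor, at 8.02 FPKM in normoxia and 5.79 in hypoxia.

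**Figure D4:**
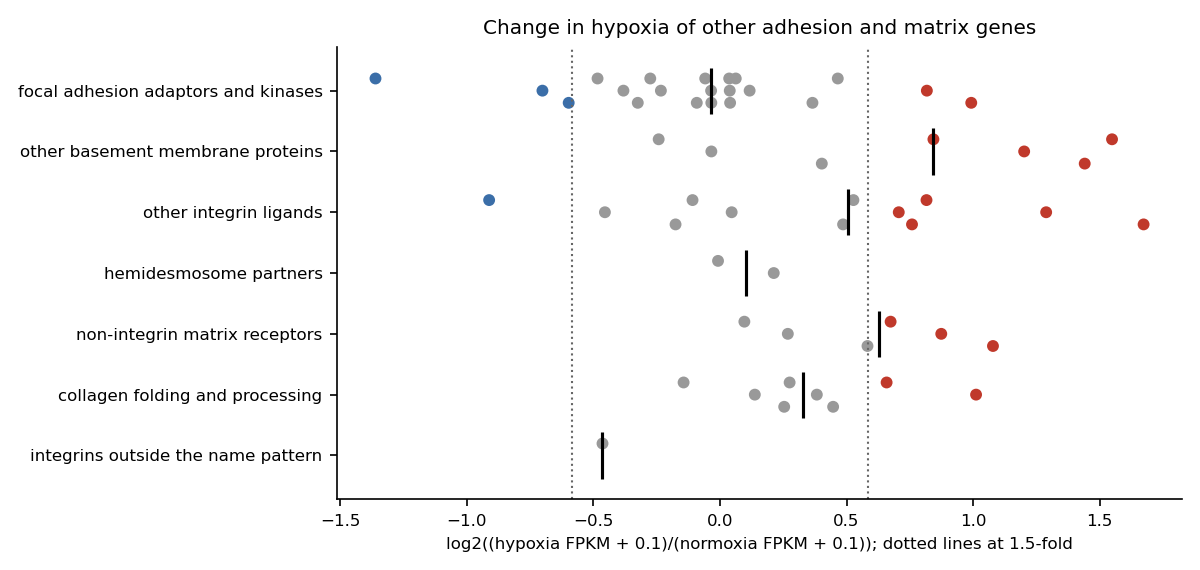
Log2 change in hypoxia of each gene of 7 other lists with a mean of at least 0.5 FPKM, with the list's median as a black line, red for genes at least 1.5-fold higher, blue for genes at least 1.5-fold lower and grey for the rest (spread vertically for legibility). The median lies at -0.04 for focal adhesion adaptors and at 0.84 for other basement membrane proteins.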

How the data were processed

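Per the labels and the paper, 8 samples (4 in normoxia, 4 in 0.5% O2 for 16 h) were grouped by their source label, since the labels repeat the hypoxia treatment text for the normoxia samples. The authors aligned reads of poly(A)-selected, stranded libraries to RefSeq hg19 with STAR 2.3.0.1 and deposited FPKM values from the Cufflinks 2.1.1 suite, 1 per transcript and condition over the replicates. The table also holds the authors' fold changes, statistics, p-values and q-values, which were not used.

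Of 24812 entries, 24293 (97.9%) were paired with symbols through RefSeq of GRCh38.p14, used for names and promoters, and FPKM was summed per gene. Gene positions and transcript lengths came from GENCODE lifted to GRCh37. Limma, planned for single libraries, could not be run. Every member above 0.5 FPKM was named except 1 that is counted but not reported here, as were transcripts with at least 10% of a gene's FPKM and genes of the other lists past 1.5-fold. Members and lists were chosen with earlier results of these data known. In a check of the calculation, changes of at least 2-fold without noise were set into the data, and all were counted in the right direction. That outcome was fixed by construction. It says nothing about changes near 1.5-fold, low levels or replicate error. Python 3.11.15, numpy 2.4.6, pandas 2.3.3 and matplotlib 3.10.9 were used. Alternatives to the pseudocount, limit, scaling, transcript choice, fold and name pattern were tried.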

Additional observations from a re-analysis of the deposited data

How the results depend on the processing

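No paired analysis was possible because the table gives 1 value per condition, although replicate numbers recur in the labels, and replicates could not be left out in turn. Of 87 recomputed family values, under 9 alternative settings and 1 more chosen after the data were examined, 80 kept their direction and stayed within 1.5 times, and 7 moved further. The 80 include counts of lower members that stayed at 0. They also include families that a setting left untouched, such as the laminins with the entry without a symbol added. The tally therefore overstates how stable the values were. No alternative gave a member that was lower by the fold counted. For collagens, the number that was higher went from 9 to 5 with 1 added to each FPKM (median log2 change 0.43), to 15 of 23 without the limit and to 4 at 2-fold. The share of all genes that was higher moved as well, from 9.95% to 5.94% with 1 added and to 11.9% without the limit, and was 3.21% at 2-fold. For integrins, 1 of 12 reached 2-fold. Equal FPKM sums moved the median log2 change of all genes from -0.07 to 0.15, with 18.3% of genes then higher and 5.01% lower, and gave 6 of 8 laminins higher and an integrin median of 0.57. The sign turned for ITGA6 (0.14) and COL5A2 (0.16) with equal sums, for COL5A2 (0.0168) with median centring and for ITGA3 (0.13) with the entry without a symbol added. The cause of these moves was not tested beyond the construction of each alternative. Genes below 2 FPKM depend most on the value added, and without counts their precision is unknown.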

Other observations

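Several genes have symbols that only begin like those of the integrins, laminins and collagens and were left out of the counts. ITGB1BP1 and ITGB3BP, named for binding integrin beta subunits, stood at 39.4 and 76.5 FPKM in normoxia and at 38.5 and 66.3 in hypoxia. The antisense gene ITGB8-AS1 went from 5.09 to 6.75 FPKM, a log2 change of 0.40, beside 0.37 for ITGB8. ITGB2-AS1 had a log2 change of 1.73, and counting it would give 6 integrin symbols higher by 1.5-fold in place of 5. Within the members above the limit, Spearman's rho of the change was -0.02 with the mean FPKM and -0.20 with the longest transcript over 33 genes that share the same libraries, a description with no test. The entry NM_130445, which has no symbol in the table used, lies at a locus shared by COL18A1 and SLC19A1 and was listed at 0.209 and 0.227 FPKM, so it was given to neither gene.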
